A study of Rattus norvegicus with 12 samples.

Results

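The 31 genes described here encode enzymes that build cholesterol and proteins that sense it, move it, store it or remove it. They were chosen by name, from known membership of these steps, provided that their level averaged 0.5 TPM or more across all 12 libraries. TPM measures transcript abundance corrected for transcript length and library size, and a gene's value is the sum over its transcripts. All 31 were found and met the condition, out of 41596 genes formed from the files, of which 24540 met it and were tested. The lowest of the 31 were Acat2, at a mean of 1.76 TPM, and Hsd17b7, at 5.69 TPM.

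The study sequenced polyA RNA of the periaqueductal grey, a midbrain region that takes part in the control of pain and in the action of opioids. The animals were male Sprague Dawley rats, 6 sired by males given saline and 6 sired by males given morphine, and the comparison asks what differs in the offspring by the sire's exposure. The labels name no treatment of the offspring themselves and give neither age, litter nor sire. Siblings therefore cannot be told apart from unrelated animals, and the p-values measure the spread between these 12 samples.

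Depth, read from the deposited coverage and FPKM of each transcript, was 4.39 to 6.03 gigabases per library with a median of 5.15. As a check of the tissue, all 11 neuron, 11 oligodendrocyte and 10 astrocyte markers were above 0 in every library, at summed levels of 6808 to 10460, 10650 to 21420 and 1527 to 2546 TPM. These lists identify brain tissue and hold no marker particular to the periaqueductal grey. Libraries differed in markers of other cell types. The summed serotonergic markers ran from 0.467 to 893 TPM in saline-sired and from 0.579 to 375 TPM in morphine-sired rats. Their score, the mean over markers of log2(TPM + 1) less each marker's mean, was lowest in saline-sired 1 (-2.78), morphine-sired 1 (-2.73) and saline-sired 6 (-2.72). Morphine-sired 2 stood apart with the highest choroid plexus score (1.60), the highest blood score (1.36) and the lowest ependymal score (-3.22). In bulk tissue, fewer cells of a type and less RNA per cell cannot be told apart.

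Cholesterol is made from acetyl-CoA by way of mevalonate, which is turned into isoprenoid units, joined to squalene, closed to the ring of lanosterol and trimmed to cholesterol. The brain makes its own supply, since lipoproteins of the blood do not cross into it; oligodendrocytes use it for myelin, astrocytes export it in lipoprotein particles, and neurons dispose of it by hydroxylating its side chain. The genes of synthesis are driven by the SREBP transcription factors, which the escort protein SCAP carries out of the endoplasmic reticulum when sterols are low and which INSIG proteins hold back when sterols are high, while oxysterols activate the LXR receptors, which drive the genes of cholesterol export.

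The promoters of 4 genes are shown because the results below turn on them or because they carry the searched letters in different combinations. Hmgcs1 encodes the synthase that makes HMG-CoA and was among the most abundant of the 31, Srebf2 encodes the SREBP that acts chiefly on cholesterol synthesis, Insig1 encodes a retention protein, and Abca1 encodes an export pump. Each line gives the 250 bases before the RefSeq start site on the gene's own strand (GRCr8), at chr2:53382054-53382303 (plus) for Hmgcs1, chr7:115543057-115543306 (plus) for Srebf2, chr4:8057770-8058019 (minus) for Insig1 and chr5:72596474-72596723 (minus) for Abca1. Capitals mark matches, on either strand, to the CCAAT box bound by NF-Y (CCAAT), the GC box bound by Sp factors (GGGCGG), the E-box CACGTG, which SREBPs can also bind, and the first 8 letters of the sterol regulatory element (ATCACCCC).
Hmgcs1: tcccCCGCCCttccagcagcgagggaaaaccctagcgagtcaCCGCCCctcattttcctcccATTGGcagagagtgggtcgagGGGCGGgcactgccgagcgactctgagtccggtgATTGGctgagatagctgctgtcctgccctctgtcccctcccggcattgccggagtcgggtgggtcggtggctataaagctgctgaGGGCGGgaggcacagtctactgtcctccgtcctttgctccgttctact
Srebf2: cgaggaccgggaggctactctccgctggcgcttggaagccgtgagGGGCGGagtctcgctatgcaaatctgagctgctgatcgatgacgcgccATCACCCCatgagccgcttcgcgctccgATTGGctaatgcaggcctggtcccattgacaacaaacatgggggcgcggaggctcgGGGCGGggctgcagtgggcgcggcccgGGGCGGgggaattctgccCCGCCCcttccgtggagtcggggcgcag
Insig1: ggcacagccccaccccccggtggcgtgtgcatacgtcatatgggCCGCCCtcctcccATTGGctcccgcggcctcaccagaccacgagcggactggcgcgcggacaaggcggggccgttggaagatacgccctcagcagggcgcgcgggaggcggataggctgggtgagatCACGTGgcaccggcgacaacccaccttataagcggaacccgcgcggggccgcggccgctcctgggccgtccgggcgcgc
Abca1: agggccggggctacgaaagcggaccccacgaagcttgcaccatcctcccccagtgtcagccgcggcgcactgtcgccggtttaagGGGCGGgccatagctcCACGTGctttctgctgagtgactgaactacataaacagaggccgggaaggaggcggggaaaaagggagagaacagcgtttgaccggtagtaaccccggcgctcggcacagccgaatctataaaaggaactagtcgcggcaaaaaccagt

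RefSeq promoters were found for 26 of the 31 genes, and Abcg1, Fdft1, Pmvk, Sqle and Stard4 had none in the table. A CCAAT box lay in the window of 19 of the 26 (73.1%), against 34% of all 33469 promoters and 36.3% of the 10832 tested symbols with a promoter. Of the 15 enzymes of synthesis with a promoter, 12 had one, and of the 11 other genes, 7. The box was written in reverse, as ATTGG on the gene's strand, in 31 of its 39 places in the 27 promoters of these genes (79.5%), against 50.7% in all promoters and 51.2% in those of tested symbols. Mvk and Nsdhl held 5 each, Hsd17b7, Npc2 and Msmo1 held 3 each, Srebf1 held 3 over its 2 promoters, and Hmgcs1 held its pair at 188 and 133 bases before the start.

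A GC box was present in 22 of the 26 (84.6%), against 30.5% of all promoters and 59% of those of tested symbols. The windows of the 26 had a median GC content of 63.2% and 20 CpG steps, against 59.6% and 15 for tested symbols and 51.2% and 5 for all promoters, and the part of base composition in these shares was not tested. The E-box was present in Abca1, Insig1, Sc5d and Scap, or 15.4%, against 5.59% and 8.37%. The letters ATCACCCC occurred in 1 of the 26 (3.85%), Srebf2, 157 bases before the start, against 0.586% of all promoters and 0.526% of those of tested symbols. A match is a description of these letters, and the lack of one says nothing of the factor.

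Levels spanned a wide range and differed little between animals for most of the genes. The plot of levels by library shows the 6 role groups side by side. The coefficient of variation over the 12 libraries had a median of 8.51%, against 20.7% over all genes tested and 10.8% over the 10847 tested genes that averaged 10 TPM or more. The steadiest was Nsdhl, which encodes a sterol dehydrogenase that takes part in removing a methyl group, at 26.5 ± 0.899 TPM (SD, n = 12; coefficient of variation 3.39%). The most variable beside Acat2 were Npc2 (37.1%), Npc1 (34.1%) and Cyp46a1 (31.3%), all genes of transport or removal. For Npc1 the figure was 18.6% once an unnamed transcript of its locus was added, so its place here depends on how the locus is counted. The summed level of the 18 enzymes of synthesis lay between 1269 TPM in saline-sired 6 and 1448 TPM in saline-sired 3, at 1356 ± 57.3 TPM in saline-sired and 1381 ± 46.7 TPM in morphine-sired rats (SD, n = 6 each).

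**Figure D1:**
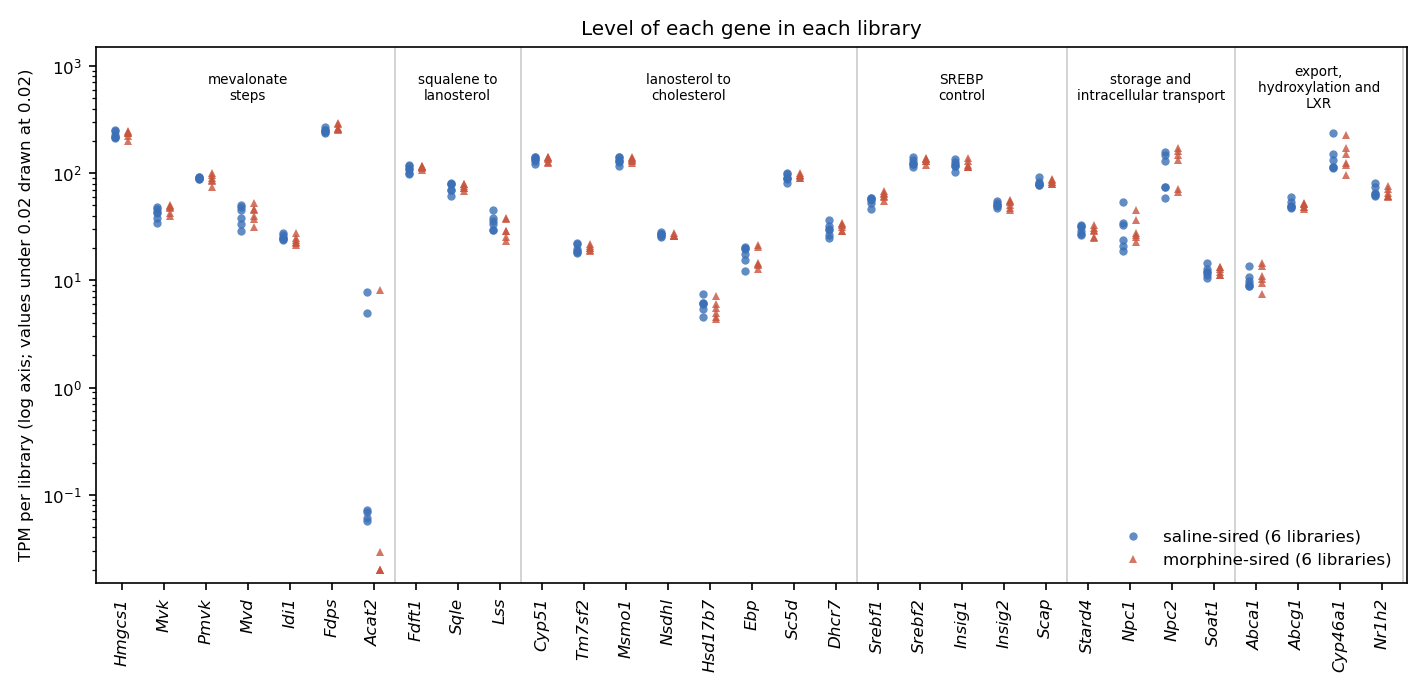
TPM of each of the 31 genes (log axis) in the 6 saline-sired (circles) and 6 morphine-sired (triangles) libraries, grouped by role, with values under 0.02 drawn at 0.02. The ranges of the groups overlap for all 31 genes, and Acat2, Npc1, Npc2 and Cyp46a1 are the most spread.

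Among the enzymes of the mevalonate steps, Fdps, the synthase of farnesyl diphosphate, had the highest mean of all 31 genes as summed under its symbol, at 259.8 ± 16.7 TPM (SD, n = 12). Hmgcs1 followed at 229 ± 16.2 TPM. The rank of Fdps rests on transcripts that reach beyond its annotated model of 8 exons. Inside that model its mean was 107.5 TPM, below Hmgcs1. Pmvk, the kinase of phosphomevalonate, stood at 89.5 ± 6.59 TPM, Mvk, the kinase of mevalonate, at 44.3 ± 4.96 TPM and Mvd, the decarboxylase that yields the isoprenoid unit, at 41.3 ± 7.70 TPM. Idi1, which isomerizes that unit, was at 24.6 ± 2.01 TPM. The whole level of Mvk came from assembled transcripts, since its annotated transcript was listed at 0 in all 12 libraries.

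Acat2, which encodes the thiolase of the first condensation, was listed at 4.99 to 8.16 TPM in saline-sired 2, saline-sired 4 and morphine-sired 4 and at 0 to 0.0716 TPM in the other 9. Its own transcripts lie on chromosome 1 (47972399 to 47992653, Rnor_6.0, the build of the files), in a longer locus shared with Acat2l1. The symbol Acat2 covers only 2 of the 15 transcripts of that locus. All 15 together ran from 70.9 TPM in saline-sired 1 to 111 TPM in saline-sired 3. The single transcripts of the locus switched between libraries far more than their sum did, and the value under the symbol Acat2 is uncertain.

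From squalene to lanosterol, Fdft1, the squalene synthase, was at 111 ± 6.69 TPM, Sqle, the squalene epoxidase, at 74.2 ± 5.91 TPM and Lss, the cyclase that closes the ring, at 32.8 ± 6.32 TPM (SD, n = 12 each). Among the 8 enzymes that turn lanosterol into cholesterol, Cyp51 (134.8 ± 6.87 TPM), which removes a methyl group from lanosterol, and Msmo1 (132.5 ± 7.64 TPM), which oxidizes further methyl groups, were the highest. Sc5d, a desaturase, followed at 92.8 ± 5.63 TPM. Dhcr7, the reductase of a last step, was at 30.9 ± 3.40 TPM, Tm7sf2, another reductase, at 20.0 ± 1.43 TPM, Ebp, an isomerase, at 16.9 ± 3.40 TPM and Hsd17b7, the reductase that acts on the ketone, at 5.69 ± 1.00 TPM.

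Within the SREBP control group, Srebf2 (129 ± 8.42 TPM) and Insig1 (120.4 ± 10.3 TPM) were the highest. Scap was at 82.3 ± 4.74 TPM, Srebf1, which encodes the SREBP that acts chiefly on fatty acid synthesis, at 58.5 ± 5.96 TPM and Insig2, another retention protein, at 50.9 ± 3.40 TPM (SD, n = 12 each). Scap was one of the steadiest genes as a sum, but its reads moved between a pair of transcripts of 24 exons. The annotated one held 76.9 to 93.0 TPM in 8 libraries and 17.4 to 27.3 TPM in saline-sired 4 and morphine-sired 4, 5 and 6. The assembled one held 55.1 to 66.3 TPM in those 4 libraries, 7.67 TPM in morphine-sired 1 and at most 0.0410 TPM in the other 7.

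For storage and intracellular transport, Npc2, the soluble protein that hands cholesterol over inside lysosomes, was at 116 ± 43.0 TPM, Npc1, the membrane protein that receives it, at 30.8 ± 10.5 TPM, Stard4, a cytosolic sterol carrier, at 29.2 ± 2.63 TPM and Soat1, which esterifies cholesterol for storage, at 12.2 ± 1.17 TPM (SD, n = 12 each). Npc2 fell into separate levels that cut across the sire groups. It was at 59.0 to 74.9 TPM in saline-sired 1, 4 and 6 and morphine-sired 4 and 6, and at 129.7 to 171 TPM in the other 7 libraries. Its annotated transcript of 4 exons gave the larger part in all 12 libraries (42.9 to 147 TPM), beside 3 assembled transcripts of 5 exons that ran from 0 to 58.4 TPM.

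Npc1 ranged from 18.8 TPM in saline-sired 2 to 54.1 TPM in saline-sired 6. Its locus on chromosome 18 (3616878 to 3662683, minus strand, Rnor_6.0) also holds an assembled transcript of 25 exons that carries no symbol, because a model of 1 exon, AABR07031184.1, lies in the same locus. With that transcript added, an alternative chosen after the data were seen, Npc1 ran from 36.9 to 61.4 TPM and its coefficient of variation was 18.6% instead of 34.1%. The model of 1 exon itself was at 27.4 to 89.7 TPM in saline-sired 3 and morphine-sired 4 and 5 and at 0.410 to 0.564 TPM in the other 9. Ebp and Tm7sf2 also lie in loci with further symbols, Tbc1d25 for Ebp and Vps51 and Mir6315 for Tm7sf2.

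**Figure D2:**
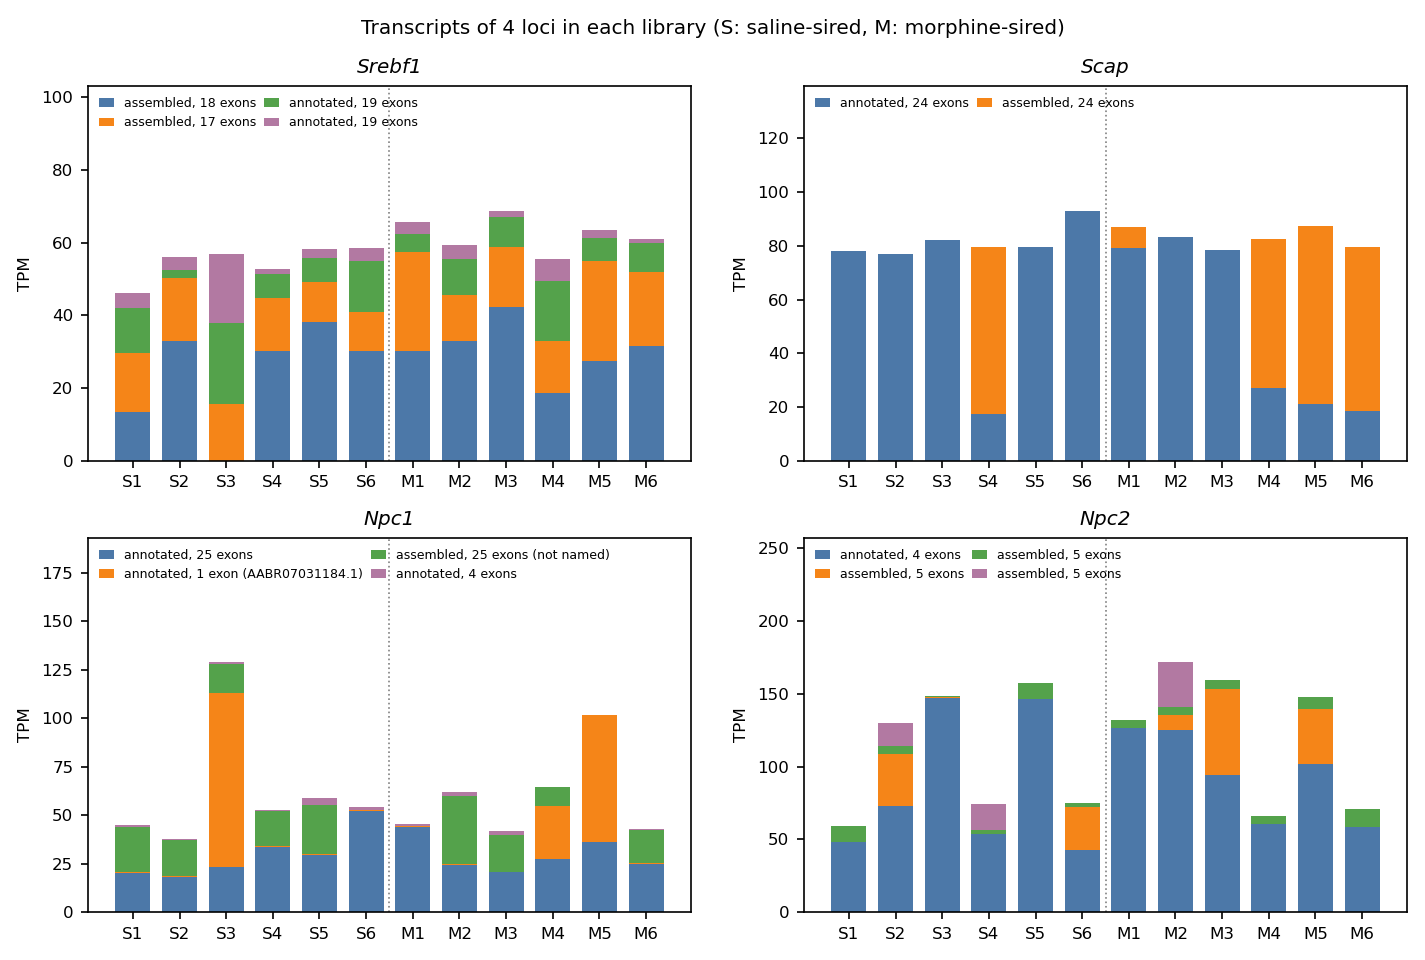
Stacked TPM of the transcripts that averaged 0.5 TPM or more at the loci of Srebf1, Scap, Npc1 and Npc2 in each saline-sired (S) and morphine-sired (M) library, annotated or assembled as named in the legends. The Scap bars keep a total of 76.9 to 93.0 TPM while the transcript changes, and the Npc1 bars include the transcripts under other names or none.

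In the group of export, hydroxylation and LXR, Cyp46a1, the neuronal hydroxylase that starts the removal of cholesterol from the brain, was the highest at 146 ± 45.6 TPM, followed by Nr1h2, an LXR, at 67.0 ± 6.97 TPM. The export pumps Abcg1 and Abca1 were at 50.5 ± 3.53 TPM and 10.6 ± 2.16 TPM (SD, n = 12 each). Cyp46a1 was highest in saline-sired 6 (238 TPM), morphine-sired 1 (227 TPM) and morphine-sired 4 (172 TPM) and at 96.3 to 151 TPM in the other 9, nearly all of it in 1 annotated transcript (mean 144 TPM). Saline-sired 6 and morphine-sired 1 were also 2 of the 3 libraries lowest in serotonergic markers. The other of the 3, saline-sired 1, had 151 TPM. Morphine-sired 6, next lowest in serotonergic score (-2.54), had 151 TPM as well. The score of cholinergic and motor neuron markers was -2.45 to -2.04 in the same 3 libraries and 0.17 to 1.36 in the other 9. The part of these markers in the level of Cyp46a1 was not tested.

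Between the sire groups, 0 of the 31 genes passed limma's test with an adjusted p under 0.05 over all 24540 genes, of which 0% were called, and every adjusted p of the 31 was at least 0.9998. At an unadjusted p under 0.05 there was 1 of 31 (3.23%), against 3.22% of all genes. The groups overlapped for all 31, so 0 were separated, against 0.0896% of all genes. The mean of log2(TPM + 1) was higher in morphine-sired rats for 21 genes (67.7%) and lower for 10. Over all genes it was higher for 49.2%, and the count carries no test. The log2 differences, of log2(TPM + 1), ran from -0.47 for Acat2 to 0.22 for Npc2 with a median of 0.02, against -0.00 over all genes. Over these genes the 95% interval of the difference had a median half-width of 0.15 on the log2 scale, against 0.30 over all genes and 0.19 over genes of at least 10 TPM. The interval lay within 0.5 of 0 on both sides for 26 of the 31 and within 1 for 30, Acat2 being the exception. Of the 10847 genes of at least 10 TPM, 9253 lay within 0.5 and 10370 within 1. The plot of differences shows each interval.

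**Figure D3:**
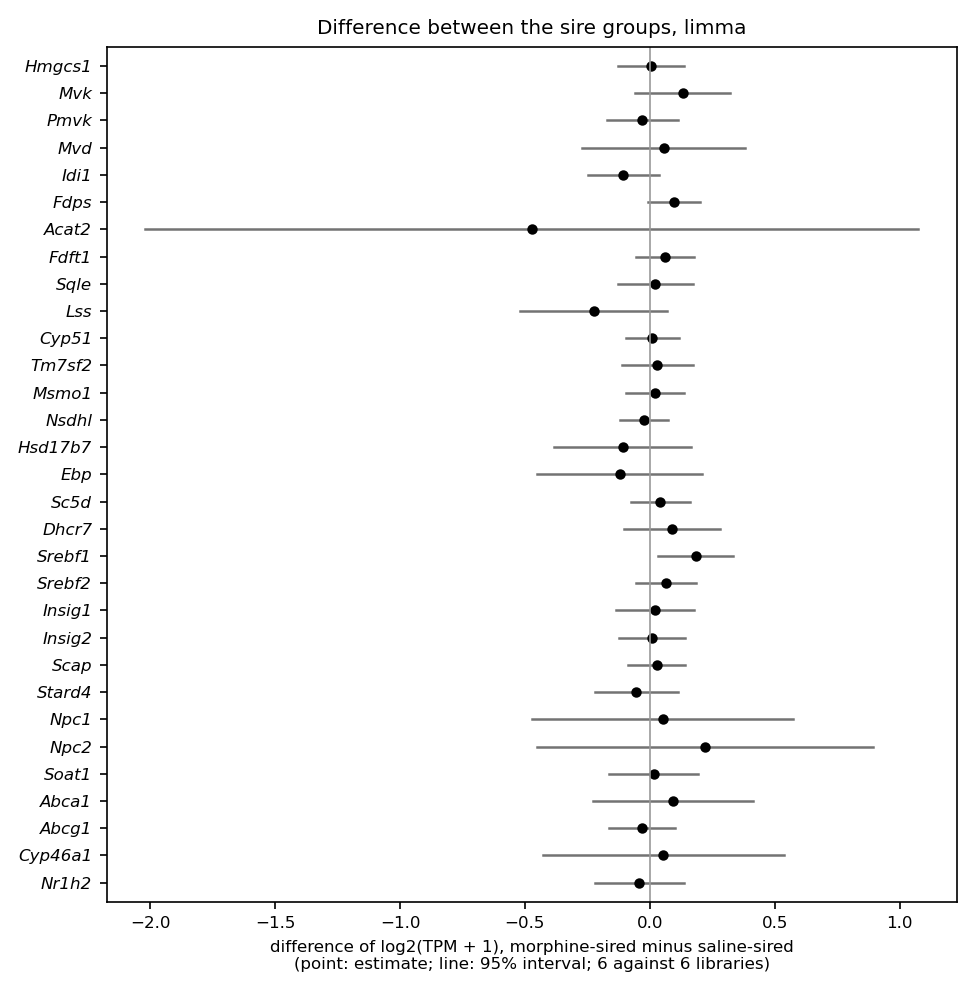
Difference of log2(TPM + 1) between morphine-sired and saline-sired rats for each of the 31 genes, with the estimate as a point and the 95% interval from limma as a line (6 against 6 libraries). All but the interval of Srebf1 (0.03 to 0.33) include 0, and Acat2 has the widest.

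By role, the median log2 difference was 0.00 for the 7 mevalonate steps, 0.02 for the 3 steps from squalene to lanosterol, 0.01 for the 8 steps to cholesterol, 0.03 for the 5 genes of SREBP control, 0.03 for the 4 of storage and transport and 0.01 for the 4 of export, hydroxylation and LXR. All 5 genes of SREBP control had the higher mean in morphine-sired rats, by 0.01 to 0.18, and 1 of them had an unadjusted p under 0.05. These counts describe the groups and carry no test.

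Srebf1 had the smallest p. Its lowest, median and highest values were 46.1, 56.5 and 58.6 TPM in saline-sired and 55.5, 62.3 and 68.7 TPM in morphine-sired rats. All but 1 of the morphine-sired values, that of morphine-sired 4, lay above the highest saline-sired one, and saline-sired 1 was the lowest of the 12. The log2 difference was 0.18 ± 0.07 (limma, SE, unadjusted p 0.0202, adjusted p 0.9998), and 0.14 to 0.21 with each library left out in turn. It rests on assembled transcripts: the gene (chromosome 10, 46570996 to 46593009, minus strand, Rnor_6.0) has annotated transcripts for 24.2% of its level, and with these alone the difference was -0.23 with an adjusted p of 0.9995. The most abundant transcript, assembled with 18 exons, was listed at 0 in saline-sired 3 and at 13.5 to 42.3 TPM elsewhere. As for Srebf1, all morphine-sired values of the microglia marker score but that of morphine-sired 4 (-0.09) lay above the highest saline-sired one. They were 0.06 to 0.13, against at most 0.02. Of 8 microglia markers, 0 were called and 4 had an unadjusted p under 0.05 in limma, against 3.22% of all genes. The part of microglia in the level of Srebf1 was not tested.

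Fdps came next, with lowest, median and highest values of 237, 249.8 and 271 TPM in saline-sired and 253, 263 and 294 TPM in morphine-sired rats, so that the groups overlapped and only morphine-sired 4 and 5 lay above all saline-sired values. The log2 difference was 0.10 ± 0.05 (limma, unadjusted p 0.0670, adjusted p 0.9998). Of its level, 41.4% came from transcripts inside the annotated model of 8 exons, 34.9% from transcripts of 17 exons that run on past its end and 23.7% from transcripts wholly beyond it, all under the same symbol. Counted inside the model of 8 exons alone, an alternative chosen after the data were seen, Fdps was at 100.1 ± 12.2 and 115 ± 11.7 TPM (SD, n = 6 each), a difference of 0.20 ± 0.09 with an unadjusted p of 0.0412 and an adjusted p of 0.9998 in limma. Over all 12 libraries the level inside that model was 107.5 ± 13.8 TPM (SD, n = 12).

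Lss had lowest, median and highest values of 29.6, 34.6 and 45.3 TPM in saline-sired and 23.1, 28.8 and 37.8 TPM in morphine-sired rats (log2 difference -0.23 ± 0.14, unadjusted p 0.122). Idi1 had 24.01, 25.0 and 27.9 TPM against 21.3, 23.3 and 27.4 TPM (-0.11 ± 0.07, 0.130). For both genes the groups overlapped and the lowest values were morphine-sired. Mvk had 34.3, 43.0 and 48.4 TPM against 40.0, 47.7 and 50.4 TPM (0.13 ± 0.09, 0.158). Srebf2 had 114, 124 and 141 TPM against 119, 134 and 138 TPM (0.06 ± 0.06, 0.268), with its highest and its lowest value both saline-sired. The adjusted p of all 4 was 0.9998 in limma.

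Single transcripts were not called either. Of the 83 transcripts of the 31 genes, 77 averaged 0.5 TPM or more, and 0 of these were called by limma, against 1 of 50419 transcripts (0.00198%). At an unadjusted p under 0.05 there were 2 of 77 (2.6%), against 3.77% of all transcripts tested. One was an assembled transcript of 8 exons of Fdps, at 35.7 to 60.0 TPM in saline-sired and 57.6 to 63.1 TPM in morphine-sired rats (log2 difference 0.32 ± 0.12, adjusted p 1). The other was an assembled transcript of 10 exons of Nr1h2, at 2.35 to 17.2 TPM and 0.894 to 5.37 TPM (-0.99 ± 0.43, adjusted p 1). The groups overlapped for both.

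Neighbouring lists of lipid genes had 0 called between the sire groups too, against the same 0%. A higher or lower mean in these lists is that of log2(TPM + 1), which was higher for 49.2% of all genes. An unadjusted p under 0.05 in limma was found for 3.22% of all genes. The counts of the lists carry no test. Of 11 genes of the isoprenoid branch, which uses the same precursors, 6 had a higher and 5 a lower mean in morphine-sired rats (median log2 difference 0.02), with 0 at an unadjusted p under 0.05; Coq2, which acts in ubiquinone synthesis, had a difference of 0.11 ± 0.08 and Rabggtb, a subunit of a prenyltransferase, of -0.99 ± 0.72. Of 14 genes of fatty acid synthesis, 12 had a higher and 2 a lower mean of log2(TPM + 1) (median difference 0.04). Acly and Elovl5 count as higher here, though their mean TPM was slightly lower in morphine-sired rats. The means were 261.6 TPM in saline-sired and 260.9 TPM in morphine-sired rats for Acly, and 70.17 and 70 TPM for Elovl5. Fasn, the fatty acid synthase, was the 1 of the 14 with an unadjusted p under 0.05, against 3.22% of all genes. It was at 171 ± 7.07 TPM in saline-sired and 183 ± 8.12 TPM in morphine-sired rats (SD, n = 6 each). The log2 difference was 0.10 ± 0.04 (limma, adjusted p 0.9998), and that of Fads2, a desaturase, was 0.22 ± 0.12. Of 25 listed genes of other sterol handling 23 were tested, and of these 10 had a higher and 13 a lower mean (median -0.01), with 0 at an unadjusted p under 0.05, among them Mylip, a ligase that marks lipoprotein receptors for breakdown (0.11 ± 0.06), and Rnf139, a ligase of the endoplasmic reticulum (-0.08 ± 0.06).

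The 31 genes were next set against scores of cell type markers over the 12 libraries, with the sire group as a term in limma's fit. A slope is the change of a gene's log2(TPM + 1) for a change of 1 in the score, and it describes levels that move together across libraries. On the oligodendrocyte score, 0 of the 31 were called, against 0.241% of 24529 genes, and 1 had an unadjusted p under 0.05 (3.23%, against 12.9%). This was Srebf2, with a slope of -0.27 ± 0.12 (adjusted p 0.359), followed by Abca1 (-0.69 ± 0.33), Cyp51 (0.19 ± 0.11), Abcg1 (0.23 ± 0.14), Insig1 (0.25 ± 0.17) and Msmo1 (0.18 ± 0.13). The oligodendrocyte score ran from -0.33 in morphine-sired 3 to 0.41 in morphine-sired 2, and 16 of the 31 slopes were positive. The lowest, median and highest values of Cyp51 were 122, 135 and 142 TPM in saline-sired and 125, 137 and 142 TPM in morphine-sired libraries. Those of Msmo1 were 116, 131 and 143 TPM and 125, 133 and 142 TPM, and those of Abcg1 47.2, 49.2 and 59.3 TPM and 46.5, 50.2 and 52.4 TPM. The sire groups overlapped for all 3.

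On the neuron score, 2 of the 31 genes were called (6.45%), against 1.83% of 24529 genes, and 7 had an unadjusted p under 0.05 (22.6%, against 21%). Insig1 (chromosome 4, 342302 to 350515, plus strand, Rnor_6.0) was higher where neuron markers were higher, with a slope of 1.03 ± 0.18 (adjusted p 0.0278). It was at 102, 119 and 135 TPM as the lowest, median and highest of the saline-sired and at 113.5, 117 and 139 TPM of the morphine-sired libraries. Its lowest value was in saline-sired 1, which had the lowest neuron score (-0.15), and its highest in morphine-sired 2, which had the highest (0.18). Abca1 (chromosome 5, 69857771 to 69983015, minus strand, Rnor_6.0) went the other way, with a slope of -2.05 ± 0.42 (adjusted p 0.0409). It was at 8.84, 9.52 and 13.6 TPM in saline-sired and 7.45, 10.7 and 14.4 TPM in morphine-sired libraries, with its lowest value in morphine-sired 2 and values above 13 TPM in saline-sired 1 and morphine-sired 1 and 5. In morphine-sired 5 the annotated transcript of Abca1 gave 6.91 TPM, its lowest value in any library. The other 7.45 TPM came from an assembled transcript listed at 0.0239 TPM in morphine-sired 6 and at 0 elsewhere. The call of Insig1 was lost without saline-sired 1 (adjusted p 0.110), saline-sired 4 (0.0502), saline-sired 5 (0.0604) or morphine-sired 2 (0.169). That of Abca1 was lost without any 1 of saline-sired 1, 4 and 5 and morphine-sired 1 to 5, with adjusted p values of 0.0534 to 0.219. Both slopes kept their sign in each of these fits. With annotated transcripts only, the slope was 0.45 for Insig1 (adjusted p 0.3845) and -0.28 for Abca1 (0.832). In slope fits of this kind the marker score was also computed from annotated transcripts. A change of slope can therefore come from the score as well as from the gene.

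The other 4 genes of smallest p on the neuron score had positive slopes that did not pass: Hsd17b7 at 1.43 ± 0.46 (adjusted p 0.121), Mvk at 0.99 ± 0.32 (0.122), Mvd at 1.66 ± 0.58 (0.143) and Nr1h2 at 0.89 ± 0.32 (0.150). Hsd17b7 was at 4.53, 6.07 and 7.43 TPM as the lowest, median and highest of the saline-sired and at 4.37, 5.26 and 7.22 TPM of the morphine-sired libraries. Mvd was at 29.0, 41.5 and 50.3 TPM and at 31.2, 42.4 and 52.7 TPM, lowest in saline-sired 1 and highest in morphine-sired 2. Nr1h2 was at 61.6, 64.4 and 80.9 TPM and at 59.9, 63.7 and 76.4 TPM, and its slope was -0.34 with annotated transcripts only. Of the 31 slopes, 19 were positive.

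On the astrocyte score the same pair was called, again 2 of 31 (6.45%), against 7.48% of 24530 genes, and 5 had an unadjusted p under 0.05 (16.1%, against 21.4%). Both shares were below those of all genes. The slope was -0.50 ± 0.13 for Insig1 (adjusted p 0.0415) and 1.04 ± 0.28 for Abca1 (adjusted p 0.0432), each opposite in sign to its neuron slope. The scores share their libraries and are not independent: morphine-sired 2 had the lowest astrocyte (-0.41), the highest neuron (0.18) and the highest oligodendrocyte score (0.41). On the astrocyte score, 6 of the 11 oligodendrocyte and 2 of the 11 neuron markers were called, 0 of them positive. On the neuron score, 2 of the 11 neuron markers themselves were called. A slope on 1 score therefore cannot be assigned to that cell type alone. The highest astrocyte score was that of morphine-sired 3 (0.27), whose neuron score was -0.04. The call of Insig1 was lost without each library but saline-sired 3 and saline-sired 6 (adjusted p 0.0543 to 0.2501), and that of Abca1 without saline-sired 1, 4, 5 or 6 or morphine-sired 1, 2, 4 or 5 (0.0549 to 0.360). Without morphine-sired 2 the slopes were -0.62 and 1.02, with adjusted p values of 0.2501 and 0.360. With annotated transcripts only, that of Abca1 was 0.67 (adjusted p 0.323). The plot against the scores shows where that library lies.

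**Figure D4:**
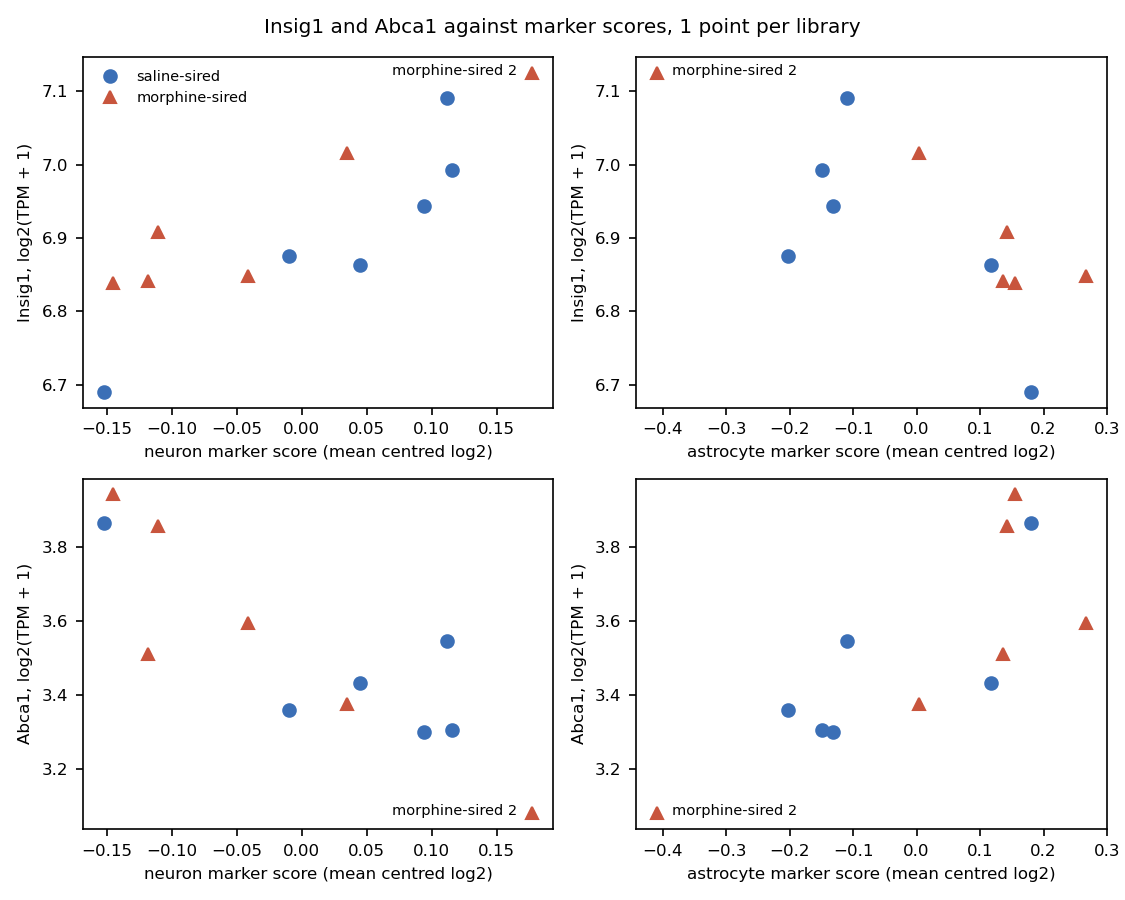
log2(TPM + 1) of Insig1 (upper row) and Abca1 (lower row) against the neuron (left) and astrocyte (right) marker score, with 1 point per library (circles saline-sired, triangles morphine-sired). Insig1 goes up and Abca1 down with the neuron score, the reverse holds for the astrocyte score, and morphine-sired 2 lies at an end of each panel.

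Hsd17b7 had an astrocyte slope of -0.84 ± 0.24 (adjusted p 0.0602), Srebf2 of 0.30 ± 0.12 (0.194), Mvk of -0.45 ± 0.20 (0.229) and Hmgcs1 of 0.31 ± 0.14 (0.2435). Hmgcs1 was at 211, 222 and 255 TPM as the lowest, median and highest of the saline-sired and at 201, 235 and 245.5 TPM of the morphine-sired libraries, lowest in morphine-sired 2. Hsd17b7 was called without saline-sired 2 (slope -0.95, adjusted p 0.0424). Of the neighbouring lists, fatty acid synthesis had 1 of 14 genes called on the neuron score (7.14%, against 1.83% of all genes). This was the elongase Elovl5 (1.74 ± 0.25, adjusted p 0.0143 in limma), a call lost without saline-sired 1 (0.0817) or morphine-sired 2 (0.157). On the astrocyte score that list had 0 called. The isoprenoid branch had 0 of 11 called on either score, and other sterol handling had 0 of 23 on the neuron score. On the oligodendrocyte score each of these lists had 0 called, against 0.241% of all genes. Other sterol handling had 7 of 23 called on the astrocyte score (30.4%, against 7.48% of all genes), 2 of them positive, with the smallest p in Abca2, a transporter abundant in myelin (-0.96 ± 0.08, adjusted p 0.00112), and Stard5, a sterol carrier (-1.84 ± 0.24, 0.00173); without morphine-sired 2 these calls were lost (0.0933 and 0.113).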

How the data were processed

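PolyA RNA of the periaqueductal grey of 12 male rats was sequenced after Trizol and column extraction and NEBNext Ultra library preparation, per the labels' protocols. The submitters' processing notes name the build Rnor_6.0, HISAT2 2.2.0, StringTie 2.1.2, Trimmomatic 0.39, DESeq2 1.28.1, SAMtools 1.11 and FastQC 0.11.9. Per the file headers, StringTie 1.3.6 estimated coverage, FPKM and TPM for 76232 transcripts (41063 annotated, 35169 assembled), and the authors deposited these values per library. The sources used here do not state strandedness, and reads of antisense neighbours cannot be told apart. Of the series table only its gene names were used, and its 12 columns of values were not.

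TPM was summed over the transcripts of a locus under 1 symbol, assembled ones included where the locus has only 1 symbol (770 loci have several). StringTie divides reads between overlapping transcripts, so single transcripts are less certain than sums. Genes averaging 0.5 TPM or more were tested on log2(TPM + 1), which understates changes of low genes, by limma 3.58.1 (R 4.3.3; two-sided moderated test with eBayes and its trend option, Benjamini-Hochberg over all genes, threshold 0.05). Groups come from the labels, and replicate numbers follow deposit order. Slopes add a marker score, the markers being left out of the background. The fit was tested on simulated data. Group ranges are given for the 6 genes of smallest p per comparison and the genes of highest and lowest mean, beside the most variable ones. Npc1, Npc2, Scap and Cyp46a1 were picked for their spread or their transcripts after their values were seen. The members and lists were chosen with earlier results of these data known. Other enzymes of these steps are not reported here. Promoters were searched in Python 3.11.15 in RefSeq's 250 bases before each start (GRCr8). Alternatives were a pseudocount of 0.1, no filter, annotated transcripts only, quantile normalization, libraries left out and an added oligodendrocyte term. Marker scores were recomputed with the pseudocount of 0.1, annotated transcripts only and quantile normalization, and were kept where libraries were left out.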

Additional observations from a re-analysis of the deposited data

Results flagged for a closer look

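Within a sire group of 6 libraries, 5 of the 62 groups of values tested (31 genes in 2 groups) had 1 library far from the rest, and chance flags about 1 in 20 such groups. Acat2 was at 8.16 TPM in morphine-sired 4, with the next of its group at 0.0294 TPM, in a locus where transcripts change between libraries. Cyp46a1 was at 238 TPM in saline-sired 6, with the next at 151 TPM. Scap was at 93.0 TPM in saline-sired 6, with the next at 82.3 TPM. Nsdhl was at 27.6 TPM in morphine-sired 6, with the next at 26.4 TPM. Srebf2 was at 119 TPM in morphine-sired 2, the low end of its group, with the next at 131 TPM.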

How the results depend on the processing

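Between the sire groups, 0 of the 31 genes and 0 of their transcripts were called under each alternative run. Over all genes, 0 to 1 was called with single libraries left out and 1 without saline-sired 1, saline-sired 6 and morphine-sired 1 together. The 2 calls on the neuron score became 1 without a filter and 0 with annotated transcripts only, with quantile normalization and without the 2 libraries farthest from the median score, morphine-sired 2 and saline-sired 1. They ranged from 0 to 2 with single libraries left out. The 2 calls on the astrocyte score became 1 without a filter, 0 with annotated transcripts only and 0 without morphine-sired 2 and saline-sired 6, and ranged from 0 to 2 with single libraries left out. With annotated transcripts only, the difference of Srebf1 was -0.23, the neuron slope of Nr1h2 was -0.34 and that of Elovl5 was -0.20, all opposite to the reported sign. For the slopes, the marker score was computed anew from annotated transcripts as well. With its unnamed transcript added, the difference of Npc1 was -0.11, against 0.05. With quantile normalization the astrocyte slope of Hsd17b7 was called (-1.15, adjusted p 0.0255) and that of Abca1 was not (0.85, adjusted p 0.1001), so the 2 called were Insig1 and Hsd17b7. The causes of these changes were not tested. Of 585 recomputed values for 35 slopes or differences of 26 genes, 529 kept direction and side of the threshold, 50 lost the call, 2 gained it and 4 reversed. Only results called at the main setting could lose a call, and most of the 35 were not called there. The 529 are therefore mostly values that stayed uncalled and are no measure of how stable the called slopes were. No paired analysis was possible because the labels give the groups no shared replicate numbers. Of the 31 genes, the bases behind a library's value were fewest for Acat2 (0 to 0.0255 megabases) and next for Ebp (0.0259 to 0.0573 megabases). For Acat2 these bases belong to 2 of the 15 transcripts of a locus that held 70.9 to 111 TPM in all. The part of depth in these low figures was not tested.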
